A study of Mus musculus with 8 samples.

Results

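Recruited regions are stretches of DNA that lay in lamina associated domains (LADs) of adipocytes and not of preadipocytes. They are taken from the authors' list, which does not hold all such stretches. Of the 1808 recruited regions, 623 were lost in both knockdowns, meaning that under 50% of their length lay in LADs of adipocytes depleted of Tmem120a and under 50% in LADs of adipocytes depleted of Tmem120a together with Tmem120b. They made up 34.5% of the recruited regions (95% Wilson interval 32.3 to 36.7%, which covers counting of regions only) and covered 46.1 Mb, or 42.3% of the recruited length and 1.74% of the genome. These regions were selected on the measured knockdown lists, so that count is a description and not a test.

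LaminB1-DamID was carried out in 3T3-L1 cells, an established mouse fibroblast line that turns into adipocytes in culture after a hormone cocktail. The 4 conditions were untreated preadipocytes at day 0, adipocytes at day 9 carrying a control non-target shRNA, adipocytes at day 9 carrying Tmem120a shRNA, and adipocytes at day 9 carrying Tmem120a/b shRNA (double knockdown). All adipocytes had received insulin, dexamethasone, IBMX and rosiglitazone, and all cells were transduced with lentivirus encoding Dam or a LaminB1-Dam fusion. By the study's results section, preadipocytes were harvested sooner after transduction than adipocytes, while its methods give the same time for both. Time of Dam exposure may therefore also differ between preadipocytes and adipocytes. Each condition had 1 Dam and 1 LaminB1-Dam library, so the values that follow come without replicate error. The shRNA cells were stable lines, the preadipocytes carried no shRNA, and the lists hold no expression, so shRNA, line and degree of differentiation cannot be told apart and the knockdown itself cannot be checked here.

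Lamin B1 forms part of the meshwork under the inner nuclear membrane, and DNA in LADs is generally AT-rich, gene-poor and weakly transcribed. Dam methylates adenine in GATC, so the fusion marks DNA that comes close to the lamina. Tmem120a is a nuclear envelope transmembrane protein expressed in fat, and Tmem120b is its paralog. Recruitment of a locus to the lamina in differentiation often goes with silencing of genes of other lineages.

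The ends of the regions carried the mark of the assay. Of their 1246 borders, 1240 (99.5%) fell at a GATC in the reference (mm9, NCBIM37, plus strand), so a border is placed only as finely as these sites are spaced. The windows below show 40 bases around both borders of 4 regions that recur in the results, with each GATC in capitals and the border at the central one. They lie at chr4:28694365-28694404 and chr4:28941384-28941423 for the region of Epha7, chr4:17742623-17742662 and chr4:18056751-18056790 for that of Mmp16, chr7:69472053-69472092 and chr7:69573630-69573669 for that of Ndn, and chr17:60948355-60948394 and chr17:61519984-61520023 for the longest region, on chromosome 17. None of these windows meets an annotated exon.
Epha7 region, left border: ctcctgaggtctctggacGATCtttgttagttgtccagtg
Epha7 region, right border: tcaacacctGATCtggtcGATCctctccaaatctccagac
Mmp16 region, left border: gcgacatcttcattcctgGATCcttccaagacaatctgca
Mmp16 region, right border: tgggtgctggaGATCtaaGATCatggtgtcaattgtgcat
Ndn region, left border: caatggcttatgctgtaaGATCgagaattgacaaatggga
Ndn region, right border: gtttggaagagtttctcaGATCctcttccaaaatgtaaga
chromosome 17 region, left border: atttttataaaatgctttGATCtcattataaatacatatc
chromosome 17 region, right border: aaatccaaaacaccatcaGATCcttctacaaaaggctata

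The lost regions ranged from 8.47 to 572 kb, with a median of 47.4 kb and quartiles of 25.7 and 93.1 kb. The 580 regions kept in both knockdowns (at least 50% of the length in each list) had a median of 35 kb, the 214 lost in the Tmem120a knockdown only 33.6 kb, and the 391 lost in the double knockdown only 46.4 kb. Long regions were lost more often than short ones. Of regions under 20 kb, 31.2% (109 of 349) were lost in both lists, against 29.1% from 20 to 50 kb, 37.0% from 50 to 100 kb, 44.6% from 100 to 200 kb and 64.3% (45 of 70, interval 52.6 to 74.5%) from 200 kb up. These shares describe the lists and carry no test, since loss is the selection rule and regions are not replicates.

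Loss was complete for many of these regions and partial for the rest. No base lay in either knockdown list for 249 of the 623 (40%). A further 76 met only the double knockdown list, 151 only the Tmem120a knockdown list, and 147 met both. The share with no overlap depended on short knockdown LADs. It was 53.9% of the regions then lost without knockdown LADs under 30 kb and 80.5% without those under 100 kb. Of the combined length, 73.4% (33.8 Mb) lay in neither list, 15.4% in the Tmem120a knockdown list only, 7.64% in the double knockdown list only and 3.56% in both. Across the 623 regions, 18.9% of the length thus remained in Tmem120a knockdown LADs and 11.2% in double knockdown LADs. The share of regions with no overlap at all fell from 66.1% under 20 kb to 51.4%, 29.5% and 18.7% in the next 3 length classes, and to 0 of 45 from 200 kb up. Each region of 200 kb or more thus met a LAD in at least 1 knockdown list.

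The 10 longest lost regions spanned 371 to 572 kb, and 5 of them were on chromosome 4. Beside those described with their LADs and genes below, they were a 472 kb region at chr8:50193485-50665779 that holds 4930555F03Rik (34.7% in Tmem120a knockdown LADs and 0% in double knockdown LADs), a 377 kb region in Frmpd4 on X (4.35% and 5.59%), and regions without a protein-coding gene of 412 kb (39.8% and 26.9%) and 371 kb (40.1% and 11.0%) on chromosome 4 and of 372 kb (33.4% and 15.4%) on chromosome 12.

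The 50% limit passed through a continuous range of values. Just inside it were a 306 kb region at chr1:146205545-146511406 that spans Rgs21 (49.9% in Tmem120a knockdown LADs, 13.2% in double knockdown LADs), an 18.1 kb region on chromosome 9 (49.8% and 0%), a 69.2 kb region on chromosome 14 (49.8% and 0%), a 156 kb region on chromosome 10 (0% and 49.7%) and a 154 kb region on the X chromosome (49.6% and 19.0%). Just outside were a 125 kb region with Ube2nl on chromosome 7 (44.2% and 50.3%), regions of 39.0 kb on X (48.5% and 50.4%) and 37.5 kb by Vsnl1 (33.3% and 50.4%), a 46.5 kb region with Prr9 and Lelp1 (50.6% and 28.5%), and a 137 kb region on chromosome 17 (50.7% and 19.5%).

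The next question was where the regions sit relative to stretches that were in LADs of both preadipocytes and adipocytes, called shared LADs here. A recruited region can fill a gap between shared LADs, extend a shared LAD on 1 side, or stand as a LAD of its own. Of the regions lost in both knockdowns, 199 (31.9%, interval 28.4 to 35.7%) filled a gap, 239 (38.4%) extended an edge and 185 (29.7%, interval 26.2 to 33.4%) touched no shared LAD. Each of those 185 was a whole adipocyte LAD. Of the kept regions, 376 (64.8%) filled a gap, 156 (26.9%) extended an edge and 48 (8.28%) stood alone. Of the regions lost in the Tmem120a knockdown only, 35% filled gaps, 44.9% extended an edge and 20.1% stood alone, and of those lost in the double knockdown only 49.6%, 35% and 15.3%.

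**Figure D1:**
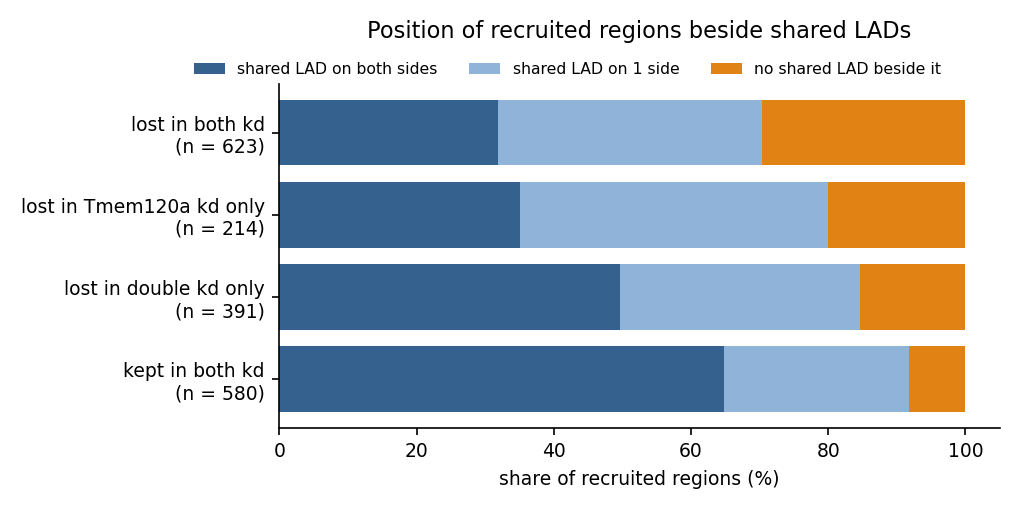
Stacked bars give the share of recruited regions (%) that lie between shared LADs, beside a shared LAD on 1 side, or beside none, for the 4 classes of recruited region with their numbers. Regions without a shared LAD beside them make up 29.7% of those lost in both knockdowns and 8.28% of those kept in both.

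Read the other way, 23.6% of gap-filling regions (199 of 844, interval 20.8 to 26.6%), 38.1% of edge regions (239 of 628, 34.3 to 41.9%) and 55.1% of stand-alone regions (185 of 336, 49.7 to 60.3%) were lost in both knockdowns. These intervals count regions, which are not replicates of a condition, and so carry no test. Over all recruited regions the median lengths were 42.3 kb in gaps, 38.7 kb at edges and 39.7 kb standing alone, and among the lost regions 56.9, 46.5 and 38.5 kb. Among the regions lost in both, no overlap in either list, which is the extreme of the values used to select them, was found for 58.9% of the stand-alone, 36.0% of the edge and 27.1% of the gap-filling regions. Shorter lost regions were also lost completely more often, and the part of length in these shares was not tested.

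The shared LADs beside the lost regions, which did not enter the rule but come from the same lists, were also less often in LADs of the knockdowns. Up to 50 kb of shared LAD next to each region was summed per region, so a stretch between 2 regions can count for both. Within these flanks (26.6 Mb beside 438 regions), 47% lay outside the Tmem120a knockdown LADs and 60.7% outside the double knockdown LADs. Beside kept regions these shares were 8.43% and 13.2%, and over all shared LADs 7.78% and 10.2%. Both flanks together fell under 50% in each knockdown list for 170 of the 438 regions (38.8%), beside 15.8% of all 1472 recruited regions with such a flank and 5 of 532 kept regions (0.940%). For comparison, 12.5% of the 3185 shared stretches at least as long as the shortest recruited region (8075 bp) had under 50% of their length in each knockdown list. Some lost regions touched only short shared stretches, so the flanks were also measured in shared stretches of at least 100 kb. There 34.6% and 44.6% lay outside the 2 knockdown lists beside 204 lost regions, against 6.42% and 10.8% beside 377 kept regions.

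Moving away from the region into the shared LAD, the share of positions in knockdown LADs rose with distance. At 1 kb from the border, 33.9% of the 637 borders were in a Tmem120a knockdown LAD and 23.4% in a double knockdown LAD. At 20 kb the values were 50.9% and 38.0%, at 50 kb 68.6% and 57.1%, at 100 kb 80.9% and 71.9%, and at 200 kb 87.1% and 84.5%. The number of borders whose shared stretch reaches so far fell from 637 to 155, so the far points rest on the longer stretches. A stretch between lost regions is entered from each side. Beside kept regions the 1 kb values were 93.6% and 89.0%, and the profile stayed nearly level.

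**Figure D2:**
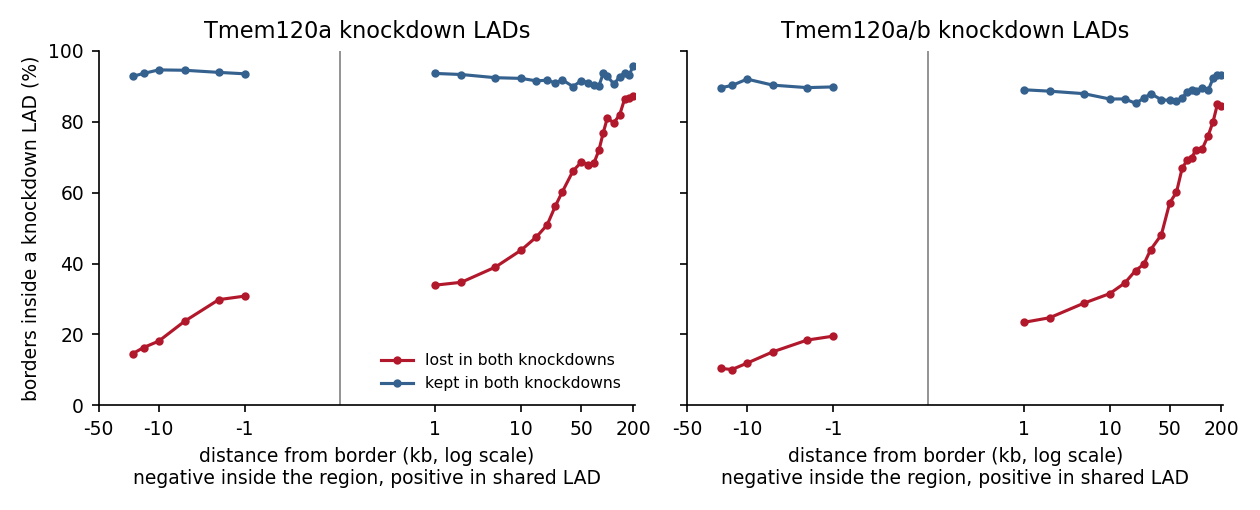
Each point is the share of borders (%) at which the position so many kb from the border lies in a LAD of the Tmem120a knockdown (left) or of the double knockdown (right), on a symmetric log axis. Beside regions lost in both knockdowns the curve climbs from 33.9% and 23.4% at 1 kb to 87.1% and 84.5% at 200 kb, and beside kept regions it starts at 93.6% and 89.0%. Values inside the regions were used to select them.

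Few borders went back to the place they had in preadipocytes. Of the 637 borders with a shared LAD, the knockdown LAD ended within 5 kb of the preadipocyte border in 16.0% (Tmem120a knockdown) and 14.4% (double knockdown). It ended further back inside the shared LAD in 35.2% and 32.5%, reached over 5 kb into the recruited region in 22.8% and 14.6%, and was absent from that shared stretch in 26.1% and 38.5%. Beside kept regions the knockdown LAD reached over 5 kb into the region at 92.3% and 87.6% of 908 borders. It ended within 5 kb of the preadipocyte border at 2.75% and 3.41% of them, fewer than beside lost regions. The selection limits how many borders of lost regions can reach in, so these shares are a description. These values stand beside knockdown lists that hold more and shorter LADs in general (5723 and 6971 LADs, against 2542 in adipocytes and 3914 in preadipocytes) over nearly the same total length of 1161.4 to 1197.9 Mb. The part of that fragmentation in the loss of these regions was not tested.

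Most adipocyte LADs with a lost region held a single such region, and some held several. The lost regions lay in 477 of the 2542 adipocyte LADs, of which 400 held 1, 53 held 2 and 24 held 3 or more. Those 24 LADs held 117 lost regions (18.8%). Of 310 adipocyte LADs with at least 2 recruited regions, 27 lost all of them in both knockdowns and 149 lost none.

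The adipocyte LAD with the most lost regions, chr17:59166825-62117794, lost 11 of its 14 recruited regions, and no protein-coding gene met any of the 11. The 2951 kb LAD was 29.4% covered by preadipocyte LADs, 31.7% by Tmem120a knockdown LADs and 6.82% by double knockdown LADs, so its coverage in the double knockdown lay below that of preadipocytes. It held the longest lost region, chr17:60948376-61520004 (572 kb, 22.6% and 0% in the 2 knockdown lists), whose border sequences are shown above.

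The adipocyte LAD chr4:28694386-31499701 lost all 8 of its recruited regions, which filled 92.3% of its 2805 kb. Preadipocyte LADs covered 7.72% of it, Tmem120a knockdown LADs 19.5% and double knockdown LADs 10.4%. It held 3 of the 10 longest lost regions, of 560 kb (10.4% and 7.97%), 453 kb (13.6% and 5.67%) and 449 kb (28.1% and 10.0%), and a single protein-coding gene met its lost regions. That gene was Epha7, which encodes an ephrin receptor tyrosine kinase that guides axons.

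On chromosome 10, the LAD chr10:45701386-46809733 lost 8 of 8 recruited regions, and its coverage went from 48.2% (preadipocytes) to 100% (adipocytes), 21.5% (Tmem120a knockdown) and 10.1% (double knockdown). The LAD chr10:47602325-48819297, which reaches the 3′ end of Grik2 and was named after its values were seen, lost 5 of 7, with coverage of 19.4%, 100%, 32.5% and 4.65%. In both blocks coverage in the double knockdown was below that of the preadipocytes.

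The LAD chr4:16920896-19450757 lost 7 of 14 recruited regions, that of Mmp16 among them, and kept 50.9% and 30% of its length in the knockdown lists against 47.7% in preadipocytes. The 5918 kb LAD chr14:87926985-93845037 also lost 7 of 14, but these took up only 10.9% of its length. It was still 84.0% and 66.6% covered, against 83.6% in preadipocytes. Lost regions of 296 and 38.2 kb at its end met Pcdh9, which encodes a protocadherin of neurons. The LADs next in number of lost regions, with 7 and 6 on chromosome 12, also stayed largely covered (75.3% and 60.2%, 83.1% and 74.9%). Preadipocyte LADs covered 80.1% and 80.4% of them, so in each the double knockdown coverage lay below that of preadipocytes.

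**Figure D3:**
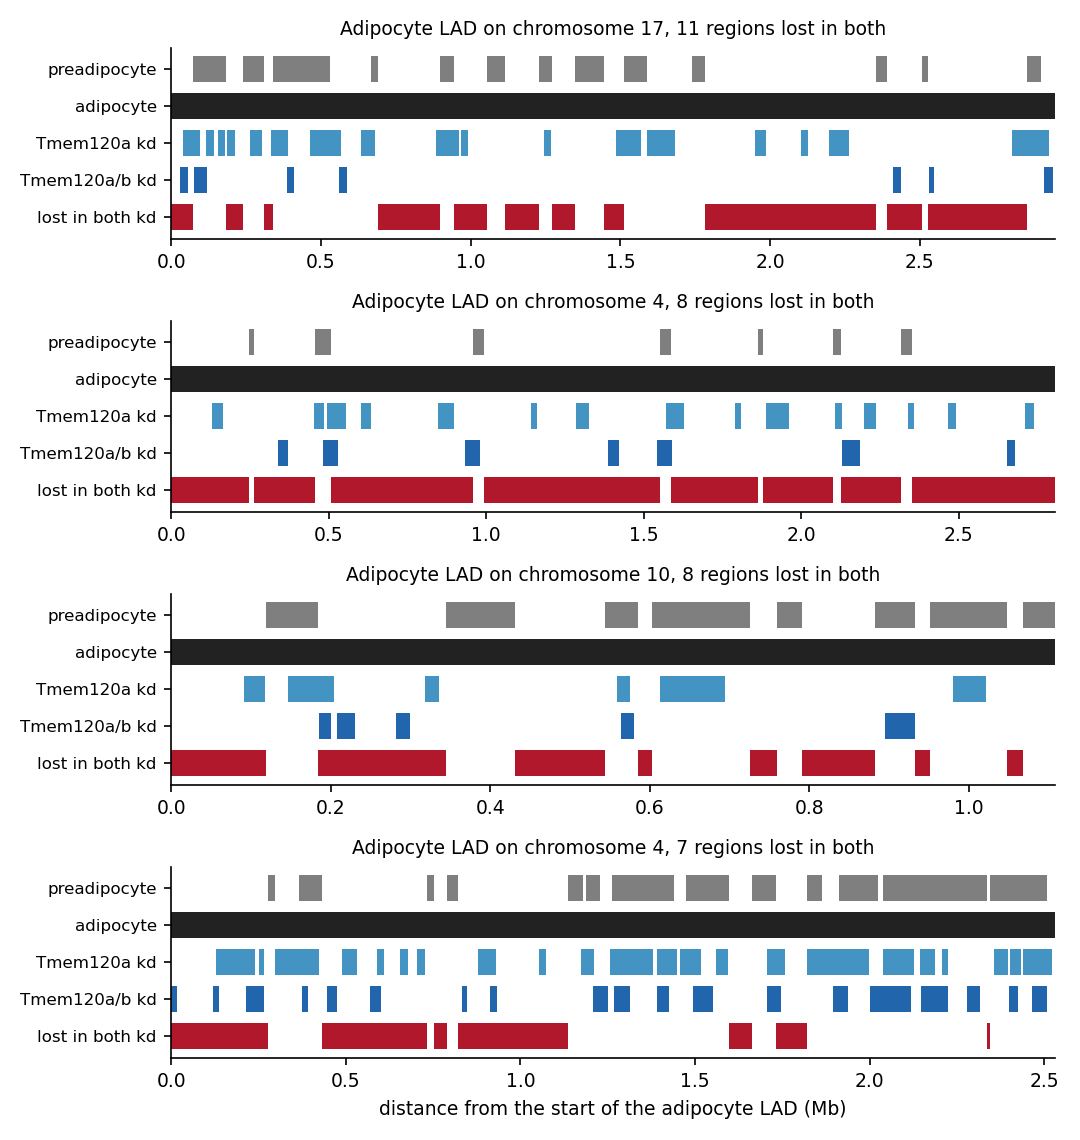
Bars mark LADs of the 4 conditions and the regions lost in both knockdowns within the 4 adipocyte LADs that hold the most of them, along the distance (Mb) from the start of the adipocyte LAD. The 1st and 2nd panels show the blocks on chromosomes 17 and 4 where the double knockdown list covers 6.82% and 10.4%.

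Chromosome 4 stood out by length. There 49 of 104 recruited regions (47.1%, interval 37.8 to 56.6%) and 74.2% of the recruited length (7.23 Mb) were lost in both knockdowns. Chromosome 13 had the highest share by number (43 of 87, 49.4%, interval 39.2 to 59.7%) and chromosome 19 the lowest (3 of 19, 15.8%, interval 5.52 to 37.6%), followed by chromosome 16 (16 of 74, 21.6%, interval 13.8 to 32.3%). On chromosome 17 the lost regions were 36.2% by number and 56.3% by length. Most intervals held the value over all chromosomes of 34.5%, and the X chromosome, at 29.9% (23.5 to 37.3%), did not stand apart.

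**Figure D4:**
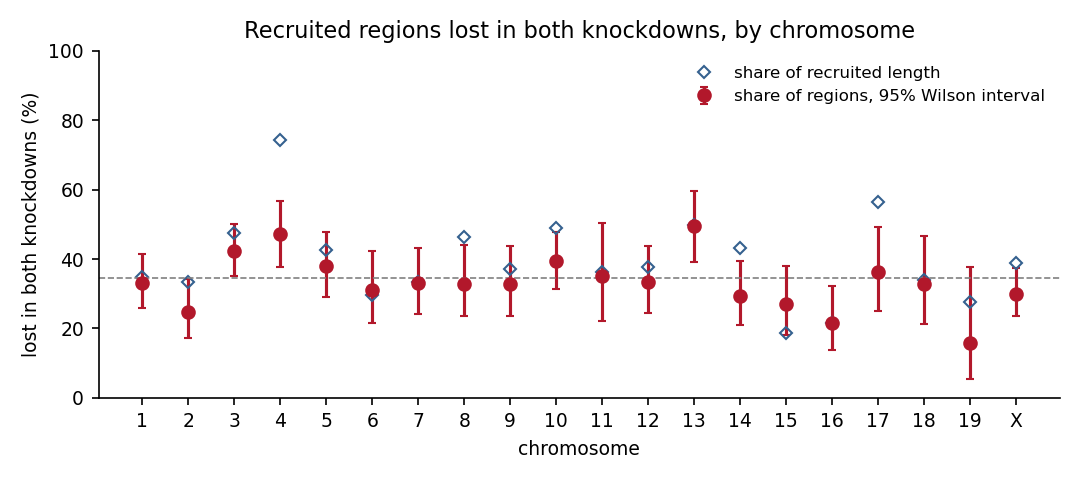
Filled points give the share of recruited regions (%) lost in both knockdowns on each chromosome with its 95% Wilson interval, open diamonds the share of the recruited length, and the dashed line the 34.5% over all regions. Chromosome 4 has 47.1% of regions and 74.2% of length lost, chromosome 19 has 15.8% of regions lost.

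The base composition of the lost regions was close to that of the other recruited regions. Median GC content was 38.9% (quartiles 37.4 and 41.1%), against 39.8% for kept regions, 40.5% for those lost in the Tmem120a knockdown only and 38.8% for those lost in the double knockdown only. The medians of the CpG ratio (observed over expected) were 0.153 for lost and 0.155 for kept regions. GATC sites, on which the resolution of DamID rests, had a median of 2.42 per kb in lost and 2.41 per kb in kept regions. Within the lost regions GC content followed position, with medians of 37.7% in gaps, 39.2% at edges and 40% where the region stood alone.

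The lost regions were poor in genes. No protein-coding gene met 408 of the 623 (65.5%), against 52.8% of the kept regions, and 94 (15.1%) lay wholly inside a single gene, against 24.7%. In all 214 of 22367 protein-coding genes (0.957%) met a lost region, 103 had their start site in one and 63 lay wholly inside. That gave 2.24 start sites per Mb, against 3.74 in kept regions and 8.42 over the genome. The genes were long, with a median of 86.5 kb against 15.4 kb for all genes, though genes meeting kept regions were no shorter (106 kb). Of the 103 starts, 82 were outside the LADs of both knockdown lists and 0 were inside the LADs of both. Of the 214 genes, 75 had no base in a LAD of either knockdown, and 36 of the 63 genes wholly inside a lost region were among them. Of the combined length of the lost regions, 73.4% lay in neither knockdown list and 3.56% in both. These counts of starts and genes thus follow largely from the selection and are a description.

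The 20 genes with most sequence in lost regions included receptors, channels and transporters. They were ranked by sequence in regions selected for low coverage in both knockdowns. Their lower coverage there therefore follows largely from the selection. Grik2, a kainate glutamate receptor subunit, had 538 kb of its 689 kb in 3 lost regions. Of its gene body 11.0% lay in preadipocyte LADs, 94.7% in adipocyte LADs, 35.6% in Tmem120a knockdown LADs and 0% in double knockdown LADs. Its start site went the other way, in a LAD of preadipocytes and outside LADs in adipocytes and both knockdowns. The 3 regions (295, 125 and 118 kb) had 24.1, 14.5 and 45.9% of their length in Tmem120a knockdown LADs and 0% each in double knockdown LADs. Kcnj3, an inward rectifier potassium channel, lay wholly in a 214 kb lost region (chr2:55260865-55475285), and its coverage went from 0% to 100%, 25.1% and 13.8% in the same order of conditions. Its start site was in a LAD of the Tmem120a knockdown but in none of the double knockdown. Scn9a, a voltage-gated sodium channel of sensory neurons, lay wholly in a 202 kb region, at 0%, 100%, 48.0% and 22.8%. Slc9a9, an endosomal sodium/proton exchanger, met 3 lost regions and had 24.9%, 61.5%, 10.6% and 4.04%.

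Genes of synaptic vesicle release and of the postsynaptic scaffold were also among the 20. Syt1, the calcium sensor of synaptic vesicle release, had 38.8%, 77.3%, 27.4% and 23% of its body in LADs of preadipocytes, adipocytes, Tmem120a knockdown and double knockdown. Unc13c, a vesicle priming protein and a gene discussed in the study, had 54.1%, 100%, 68.9% and 39.2%, and its start lay in a 253 kb lost region. Frmpd4, a postsynaptic scaffold protein, led all genes with 683 kb of 1106 kb in 5 lost regions on the X chromosome and had 28.2%, 88.1%, 3.68% and 19.2%. Its start site was outside the LADs in all 4 lists, so the change concerned the gene body.

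Adhesion, matrix and guidance genes made up a further group. Mmp16, a membrane-bound matrix metalloproteinase, lay wholly in the 314 kb region chr4:17742644-18056771 and went from 0% to 100%, 27.7% and 7.90%. Epha7 lay wholly in the 247 kb region chr4:28694386-28941404, at 0%, 100%, 21.7% and 0%. Lphn3, an adhesion G protein-coupled receptor, had 0%, 57.3%, 12% and 5.67% over 3 lost regions, each an adipocyte LAD of its own. Slit2, a secreted axon repellent, had 8.15%, 72.7%, 26.7% and 20.6%. Sema3e, a secreted semaphorin, had 17.2%, 96.2%, 19.5% and 38.2%, the higher value being in the double knockdown. Cdh18, a cadherin, had 13.3%, 100%, 41.5% and 30.2%. Pcdh9 had 53.8%, 93.1%, 38.0% and 2.63%, and so fell below its preadipocyte value in both lists. Adamtsl1, an extracellular matrix protein, had 17.2%, 99.3%, 0% and 12.7%.

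Not all genes with a lost region lost much of their LAD coverage over the gene body. Pcdh15, a cadherin of hair cells 1550 kb long, had 83.8%, 100%, 89.2% and 84.1%, since its lost region holds only 12.2% of the gene. The start site of Pcdh15 was in a LAD in all lists but that of the double knockdown. Fam190a had 78.2%, 100%, 89.7% and 84.6%. Its start site lay in the lost region and was in a LAD in adipocytes only. The other genes among the 20 leading ones were Gm15155 (20.6%, 92.9%, 24.0% and 16.7%), 4930555F03Rik (0%, 100%, 46.6% and 0%) and Prr16 (23.4%, 62.7%, 0% and 7.06%). Eltd1, an adhesion receptor of endothelium whose start lies in the third longest lost region (chr3:150730054-151231924, 502 kb), had 0%, 100%, 40.7% and 21.1%.

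**Figure D5:**
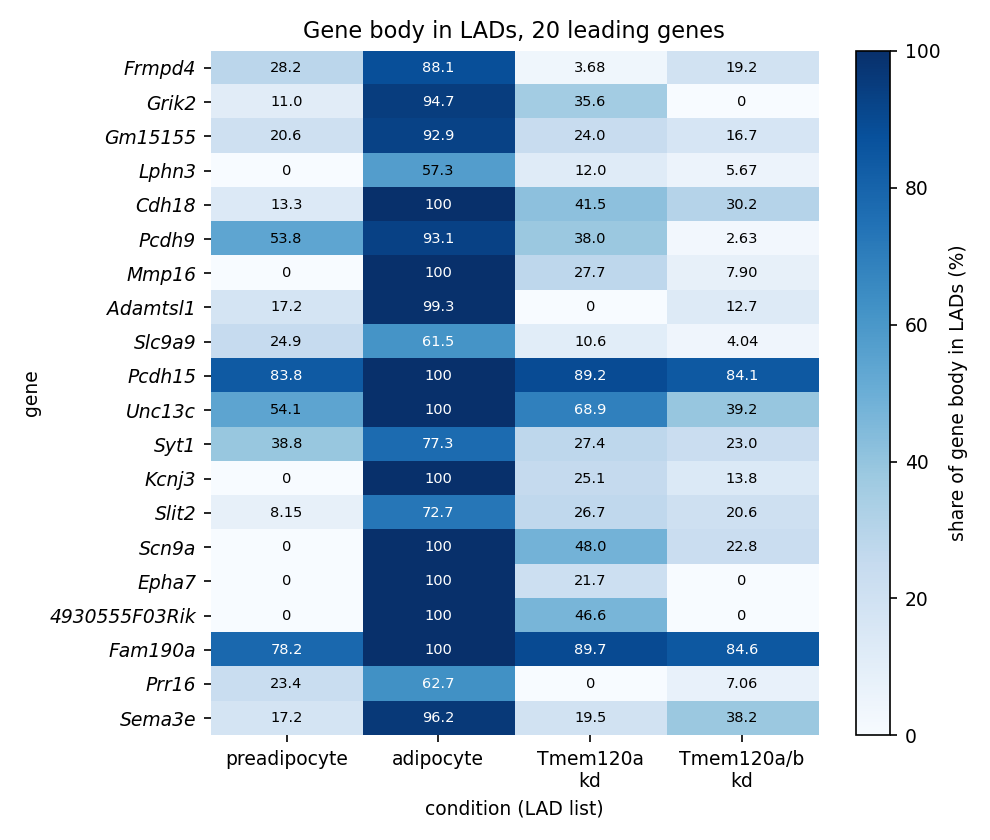
Cells give the share of the gene body (%) in LADs of each condition for the 20 genes with most sequence in regions lost in both knockdowns, ordered by that length from the top. For 18 of the 20 genes both knockdown values lie more than 30 points under the adipocyte value, and Pcdh15 and Fam190a keep 84.1 to 89.7%. The genes were ranked by sequence in regions selected on these lists, so the drops follow largely from the selection.

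Upstream sequence of the genes that start in lost regions is shown for Epha7, Mmp16 and Scn9a, which lay wholly inside a region. The runs are the 200 bases before the annotated start, 5′ to 3′ on the strand of the gene, from NCBIM37 (chr4:28740081-28740280 on the plus strand, chr4:17779840-17780039 on the plus strand and chr2:66473010-66473209 on the minus strand), with each CG in capitals.
Epha7 promoter: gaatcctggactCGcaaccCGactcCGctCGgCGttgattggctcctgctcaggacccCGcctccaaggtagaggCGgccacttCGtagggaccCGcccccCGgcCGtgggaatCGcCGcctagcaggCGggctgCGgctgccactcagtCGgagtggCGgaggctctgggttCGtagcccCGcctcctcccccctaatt
Mmp16 promoter: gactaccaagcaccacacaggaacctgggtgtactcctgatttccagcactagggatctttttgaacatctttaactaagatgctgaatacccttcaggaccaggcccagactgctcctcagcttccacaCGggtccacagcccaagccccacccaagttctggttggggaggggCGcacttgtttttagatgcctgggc
Scn9a promoter: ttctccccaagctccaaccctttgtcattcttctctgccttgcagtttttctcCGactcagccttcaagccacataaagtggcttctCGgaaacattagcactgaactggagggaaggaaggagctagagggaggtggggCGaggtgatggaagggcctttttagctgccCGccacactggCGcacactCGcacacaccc

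The Epha7 promoter had 19 CG dinucleotides and a GC content of 69.0%, that of Mmp16 had 2 and 54.0%, and that of Scn9a had 6 and 55.0%. The motif CG was counted on the strand shown and reads the same on the other. Over the 103 promoters in lost regions the median was 3 CG and the median GC content 47.5%, against 3 and 47% for the 109 in kept regions and 7 and 55.5% for all 22362 promoters. At least 10 CG were found in 18.4% of the promoters in lost regions, 15.6% of those in kept regions and 42.5% of all. Promoters in lost regions were therefore poorer in CG than promoters at large, as were those in kept regions. A GATC was present in 32.0%, 36.7% and 32.9% of these promoters.

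Lists of related genes, read by how many members met a lost region beside the 0.957% of all protein-coding genes, gave 9 of 112 synaptic adhesion and axon guidance genes (8.04%), 5 of 76 cadherins and protocadherins (6.58%), 2 of 48 glutamate and GABA receptor genes (4.17%), 4 of 112 extracellular matrix and protease genes (3.57%), 2 of 63 muscle genes (3.17%), 3 of 96 potassium channel genes (3.12%), 2 of 98 cytochrome P450 genes (2.04%) and 1 of 94 genes of Wnt, BMP and TGF-beta pathways (1.06%). Long genes meet a region more easily than short ones, and kept regions met 9 of the cadherin, 5 of the guidance, 5 of the potassium channel, 4 of the matrix, 4 of the muscle, 3 of the glutamate and GABA receptor, 1 of the cytochrome P450 and 1 of the Wnt, BMP and TGF-beta genes. These counts are below those of the lost regions for the guidance and cytochrome P450 genes, and equal or above for the others. They are not adjusted for length, as the lost regions covered 46.1 Mb and the kept regions 29.1 Mb. Kept regions met 279 protein-coding genes in all. Over all 22367 protein-coding genes, 5209 met an adipocyte LAD, 688 a recruited region and 214 a lost one. Of 1113 olfactory receptor genes, 1007 met an adipocyte LAD, 25 a recruited region and 6 (0.539%) a lost one. None of 322 vomeronasal receptor genes, 372 zinc finger genes or 60 serpin genes met a lost region. Kept regions met 10 olfactory receptor, 9 vomeronasal receptor, 2 zinc finger and 0 serpin genes. None of 33 adipocyte identity and lipid storage genes met an adipocyte LAD.

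Further members of these lists are given by the region first and then by the gene body in LADs of adipocytes, Tmem120a knockdown and double knockdown. Pcdh17 lay wholly in a 148 kb region (13% and 0% in the 2 knockdown lists) and went from 100% to 0% in both. Gria2, an AMPA receptor subunit, started in a 76.5 kb region (41.0% and 0%) and went from 100% to 78.5% and 0%. Kcna4, a voltage-gated potassium channel, lay in a 350 kb region (40.1% and 36.9%) but in a part of it that was still in a LAD in the double knockdown, at 100%, 0% and 100%. Kcnip4, a potassium channel interacting protein, met a 50 kb region (0% and 39.6%) with 4.41% of its body, and the whole gene changed little, at 89.2%, 88.1% and 91.9%. Col6a5 met a 49.9 kb region (0% and 49.1%) and had 47.7%, 0% and 23.4%. Col11a1 met an 11.8 kb region (0% in both lists) with 6.22% of its body and had 100%, 83.2% and 43.2%. Cyp7b1, an oxysterol hydroxylase, met a 74.4 kb region (0% and 16.9%) and had 55.1%, 0% and 40.4%. Cyp4x1 met a 19.5 kb region (25.3% and 11.5%) with 31.1% of its body. It stayed largely in LADs, at 100%, 86.6% and 76.9%, with its start in a LAD in all 4 lists. Bmp15, a growth factor of the oocyte, lay in a 39.8 kb region (0% in both lists) and went from 100% to 0% in both. Outside the naming rule and chosen after their values were seen, Ntng1, a netrin-like protein of axons, had 81.0%, 5.52% and 34.6%, Sema3d 83.1%, 36.1% and 18%, and Cdh11, a cadherin of mesenchymal cells, 23% and then 0% in both.

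Among the genes the study discusses, some of which it chose on these samples, 16 protein-coding genes were looked up, and 3 of them (18.8%, beside 0.957% of all protein-coding genes) met a lost region and 1 a kept region. Since the study chose genes for their change in position, this share is no independent evidence. Unc13c is given above. Ano5, a muscle membrane protein of the anoctamin family, had 37.3% of its body in a 61.9 kb region (33.8% and 37.1%), yet 43.9%, 100%, 75.2% and 88.9% of the whole gene lay in LADs of preadipocytes, adipocytes, Tmem120a knockdown and double knockdown, and its start stayed in a LAD in both knockdowns. Myom2, a sarcomere protein, was the other muscle gene, with a 59.6 kb region at 26.6% and 37.4%. Cpe, carboxypeptidase E, met a 61.7 kb region (0% in both lists) with 0.278% of its body, so nearly all of the gene lay outside LADs in each list. Myh2, a fast muscle myosin, had 24.1%, 92.6%, 0% and 44.8%. It met no recruited region of the authors' list, and so no lost region. Myo18b met none either, at 100%, 100%, 73.0% and 75.4%. Myh1 lay outside LADs in all 4 lists. Ak4, Dctd, Fh1, Jazf1, Klf9, Parm1, Pla2g12a, Sema3c, Tmem120a and Tmem120b also met no lost region, and each was at 0% in adipocyte LADs.

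Lost regions held 16 of the 1577 annotated miRNA loci, a share near that of protein-coding genes, and kept regions met 25. Of the 16 loci, 4 had an entry by symbol in the RefSeq miRNA table (GRCm38.p6). Mir181a-1 and its neighbour Mir181b-1 lay in a 54.4 kb region on chromosome 1 at 0% in both knockdown lists, Mir218-1 in the 161 kb region of Slit2, its host gene, at 31.6% and 18.6%, and Mir1298 in a 38.2 kb region on X at 4.65% and 0%. Each of these loci was outside LADs in preadipocytes and in both knockdowns and inside in adipocytes. That pattern follows largely from how the regions were selected. The mature 5p arms follow, with the seed (bases 2 to 8) in capitals. The seed ACAUUCA is shared by both members of the miR-181 cluster, and the others each have their own.
miR-181a-5p: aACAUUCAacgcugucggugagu
miR-181b-5p: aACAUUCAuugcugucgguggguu
miR-218-5p: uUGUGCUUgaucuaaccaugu
miR-1298-5p: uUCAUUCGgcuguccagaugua

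Of the 6 miRNA loci looked up among those the study discusses, Mir181a-1 was the only 1 inside a lost region. Mir466f-4, a locus of miR-466f, which the study also discusses, was found after its values were seen in a 19.3 kb lost region (4.01% and 0%). It was inside LADs in adipocytes only, and miR-466f belongs to a family with near-identical copies elsewhere. The second copy of Mir181a-1, Mir181a-2 on chromosome 2, gives the same mature 5p arm and was outside LADs in all 4 lists. Mir201 lay in an adipocyte LAD and in none of the other lists, but outside the lost regions, with the nearest 676 kb away. Mir216a was in LADs of preadipocytes and adipocytes and of neither knockdown, Mir690 lay in all but the Tmem120a knockdown list, and Mir710 lay in none, at 3.85 kb from the nearest lost region, of 10.2 kb. From DamID traces, the study describes the miR-216a and miR-710 loci as gaining at the nuclear envelope in adipogenesis, which these lists do not show. It describes the miR-181a LAD, naming no copy, as shortened in the Tmem120a knockdown, where the region of Mir181a-1 had 0% in LADs.

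Some further genes, chosen here after their values were seen, lay in lost regions. The imprinted genes Ndn, Magel2 and Mkrn3 shared the region chr7:69472074-69573650 (102 kb, 13.5% and 14.8%). None of these genes had a base in LADs of preadipocytes or of either knockdown. Otx2, a transcription factor of the anterior head, lay in a 90 kb region at 5.88% and 28.6% with the gene itself at 0%. Slc7a11, the cystine/glutamate exchanger, started in a 72.8 kb region at 0% in both lists, with 54.9% of its body inside. Genes of multigene families (Psg17 and Psg19, Trim30c, Rhox2d, Krtap9-1) were also among those wholly inside a lost region, and near-identical copies make the mapping of reads to them uncertain.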

How the data were processed

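LaminB1-Dam and Dam libraries, 1 of each per condition, were compared through the lists of LAD positions and of recruited regions that the authors deposited. Per the study's methods the authors mapped reads to mm9, formed log2(LaminB1/Dam) values over DpnI fragments and called LADs by segmentation with DNAcopy; the submitters' processing notes also name BWA and limma. The rule that chose the recruited regions is not stated in full. The lists hold start and end only, with no score, so read depth and LAD strength are unknown. The lists were read as 0-based and starts are printed 1-based, so a border is known to within 1 bp.

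Overlaps were computed in bp with numpy 2.4.6 in Python 3.11.15, with scipy 1.17.1 for Wilson intervals and matplotlib 3.10.9 for figures. A region was lost when under 50% of its length lay in LADs of a knockdown list. Sequence came from NCBIM37, the reference of mm9, and genes from GENCODE vM1. The overlap code was tested on simulated intervals. No test between conditions was possible, and regions are not replicates. The regions and gene lists were chosen with earlier results of these data known. Named were the 10 longest regions, the 5 on each side of the limit, the 5 adipocyte LADs with most lost regions and the 20 genes with most sequence in lost regions. Up to 4 genes of each list were also named, except for the olfactory receptors, which were only counted. A set of genes and miRNAs the study discusses was added. Others were named after their values were seen, as said beside them. The list of regions in LADs of preadipocytes alone was not used here.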

Additional observations from a re-analysis of the deposited data

How the results depend on the processing

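The count of 623 lost regions became 249 when no overlap was allowed, 349 with a limit of 20% and 998 when knockdown LADs under 100 kb were removed, and stayed within 1.5 times under the other 7 alternatives. The combined length (37.7 to 68.8 Mb), median length (35.5 to 67.0 kb) and median GC content (38.6 to 39.4%) stayed within 1.5 times under all 7 run. The share filling gaps was 28.1% with gaps under 50 kb closed in the knockdown lists and 27.7% over all pieces of adipocyte minus preadipocyte LADs, both outside the interval of the main value, and within it under 7 others. The share with no overlap was 53.9% without knockdown LADs under 30 kb, 80.5% without those under 100 kb, 47.5% after closing of 50 kb gaps, 28.9% for regions of at least 30 kb and 46.9% over all pieces. The 214 genes became 373 without knockdown LADs under 100 kb, 103 by start site and 95 by at least 50% of the gene body. The flank outside Tmem120a knockdown LADs was 74.1% without knockdown LADs under 100 kb and 34.6 to 74.1% over all 10 alternatives, and that outside double knockdown LADs 44.6 to 83.6%. The restriction to long shared stretches was added after seeing the data. GC content on unmasked bases was not run, as the reference used here carries no repeat mask. No paired analysis was possible because each condition has 1 library of each kind and the values come from no test. Depth limits cannot be given from positions alone.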
